A study of Mus musculus with 4 samples.

Results

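Tox4 and the genes of its phosphatase complex were followed through mouse thymocyte development and between control thymocytes and thymocytes with a conditional deletion of Tox4. The 6 genes were chosen by name, as members of the complex: Tox4, Ppp1r10 (which encodes PNUTS), Wdr82, and the PP1 catalytic genes Ppp1ca, Ppp1cb and Ppp1cc, out of 32285 genes in the count tables. All 6 were found in the tables and passed the filter on low counts in every comparison.

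Droplet single-cell RNA-seq of thymocytes gave 2 control libraries (labelled Tox4 WT) and 2 cKO libraries, 1 per mouse, named here control 1, control 2, cKO 1 and cKO 2. Both groups carried floxed Tox4 alleles (Tox4;F/F), in which exons 4 to 6 lie between loxP sites. By the labels and methods, the cKO mice also carried Lck-Cre (Tox4;F/F;Lck+), a Cre recombinase under the proximal Lck promoter that acts in T cell precursors from DN3 on, and the mice were C57BL/6 littermates of 6 to 8 weeks. No group here carried Lck-Cre without floxed alleles, so an effect of the transgene and an effect of the deletion cannot be told apart.

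TOX4 is a nuclear protein with an HMG box, a DNA-binding fold. It binds PNUTS, a scaffold that also holds WDR82 and 1 PP1 catalytic subunit, and the resulting phosphatase removes phosphate from the repeat tail (CTD) of the large subunit of RNA polymerase II and from the elongation factor SPT5. WDR82 also belongs to the SET1 histone methyltransferase complexes, and the PP1 catalytic subunits serve many other scaffolds, so their transcripts are not particular to this complex. In the thymus, immature double-negative (DN) cells become cycling double-positive blasts (DPbla), then resting cells that rearrange the T cell receptor alpha locus (DPre), then cells under selection (DPsel), and at last CD4SP or CD8SP cells.

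The libraries read the 3′ end of transcripts, and the sequence of Tox4 decides what they can say about the deletion. Tox4 lies on the plus strand of chromosome 14 (GRCm38, 52279146 to 52296401), and its main transcript has 10 exons and 5350 bases. The methods do not name the transcript that their exon numbers refer to, and the following holds if it is this one. Exons 4 to 6 hold 735 bases (243, 261 and 231), all of them coding, which is 245 codons with a remainder of 0 and 39.5% of the coding sequence. The joins of exon 3 with exon 4, as annotated, and with exon 7, as left when exons 4 to 6 are removed from that sequence, are shown because they are what separates the alleles, with the first bases of the following exon in capitals (GENCODE M21 transcript, 5′ to 3′).
exons 3 and 4: ctgtcaggagccgagACATTCCATACACCA
exons 3 and 7: ctgtcaggagccgagGTGTACAAGCGGAAG
From the end of exon 6 to the end of the transcript there are 4190 spliced bases, 3201 of them in exon 10. The joins and the deleted exons are therefore far from the read end, and the Tox4 UMIs below do not check the deletion: a transcript without exons 4 to 6 would be counted like an intact one.

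**Figure D1:**
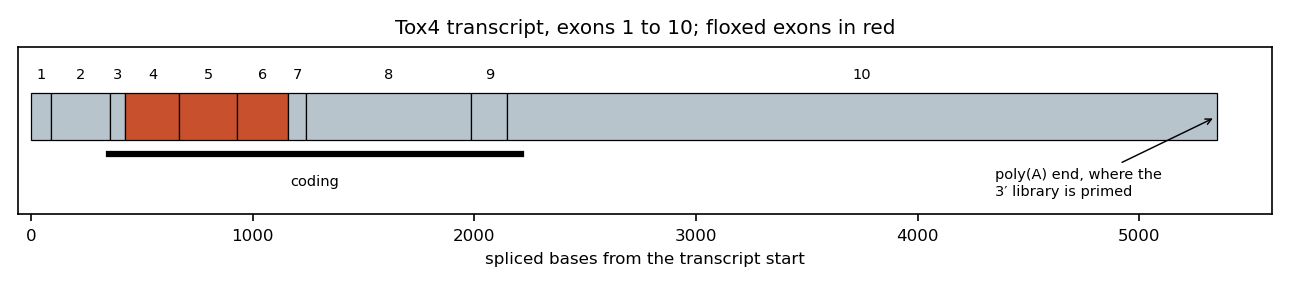
The spliced Tox4 transcript drawn to scale, in bases from its start, with exons 1 to 10, the floxed exons 4 to 6 in red and the coding part as a bar beneath. The 735 floxed bases end 4190 bases before the poly(A) end at which the library is primed.

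The other members lie on the plus strand too: Ppp1r10 at chromosome 17, 35916434 to 35932283, Wdr82 at chromosome 9, 106170928 to 106191139, Ppp1ca at chromosome 19, 4192065 to 4195420, and Ppp1cb and Ppp1cc on chromosome 5, at 32458843 to 32517433 and 122158278 to 122175273. The PP1 catalytic genes are paralogs whose coding sequences are 75.2% (Ppp1ca and Ppp1cb), 79.5% (Ppp1ca and Ppp1cc) and 75.9% (Ppp1cb and Ppp1cc) identical where aligned. Several genes overlap a member on the other strand, namely Rab2b and Mettl3 at the ends of Tox4, Rad9a and Gm50251 at Ppp1ca and Gm15614 at Ppp1cb. Mettl3, which encodes an RNA methyltransferase, shares 1561 bases with the last exon of Tox4, so a read there is told from Tox4 by its strand alone. None of these overlapping genes was called between cKO and control over all kept cells where it could be tested, and Mettl3 had a log2 fold change of -0.21 (SE 0.11, adjusted p 0.340, edgeR). Gm15614 had the smallest p of them (-0.68, SE 0.26, unadjusted p 0.0255, adjusted p 0.202, edgeR). Between stages Mettl3 was lower in DPbla than in DN (-0.65, adjusted p 0.00324) and higher in DPre than in DPbla (0.44, adjusted p 2.24e-05), the directions of Tox4 in the same comparisons, and its part in the Tox4 UMIs was not tested.

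The 4 matrices held 57354 cells and 204258388 UMIs, from 42716798 to 62007453 UMIs per library, and 35164 cells were kept, with medians of 2511 to 3458 UMIs. Cells with over 10% mitochondrial UMIs made up 48.3% of control 1 and 46.1% of cKO 1 against 20.6% of control 2 and 23.1% of cKO 2, so library quality followed the replicate number and not the genotype. Any pair of libraries shared 36 to 70 cell barcodes, at most 0.555% of the smaller library. Stages were set by marker UMIs with thresholds chosen after seeing the data, which placed 24323 of the kept cells (69.2%). DN held 37 to 186 cells per library, DPbla 501 to 1369, DPre 2472 to 5689, DPsel 728 to 1155, CD4SP 230 to 354 and CD8SP 70 to 111. Genes left out of the thresholds followed the stages: Ptcra, a subunit of the pre-T cell receptor, was at 247 to 398 CPM (UMIs of a gene per 1000000 UMIs) in DN and at most 109 CPM in any later stage, and Trac, the receptor's alpha constant region, rose from 31.8 to 121 CPM in DN to 616 to 1028 CPM in the SP stages. Cd74, a phagocyte and B cell gene, was at 13.2 to 68.0 CPM in the stages against 7032 to 8357 CPM in droplets with phagocyte markers. It is itself one of those markers, so this contrast follows from the thresholds and does not check the stages. Between 6.30% and 12.2% of the kept cells of a library lay between the threshold of DPbla and that of resting DP cells and entered neither stage.

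Tox4 had stage means from 48.7 to 75.1 CPM over the 4 libraries. In DPbla it was at 48.3 and 51.6 CPM in control 1 and 2 and at 45.4 and 49.3 CPM in cKO 1 and 2. In DPre it was at 75.8 and 81.4 CPM in the controls and at 64.7 and 67.2 CPM in the cKO libraries, and in DPsel at 85.1 and 86.9 against 60.3 and 68.1 CPM. All 4 libraries were thus lowest in DPbla among the 3 DP stages. CD4SP followed with 61.5 and 63.1 against 59.3 and 54.6 CPM, and CD8SP with 51.5 and 76.1 against 50.6 and 44.8 CPM. In DN the values spread from 38.0 CPM in cKO 1 to 118 CPM in control 2, on only 16 to 103 Tox4 UMIs per library, and this spread exceeded every difference between stages.

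**Figure D2:**
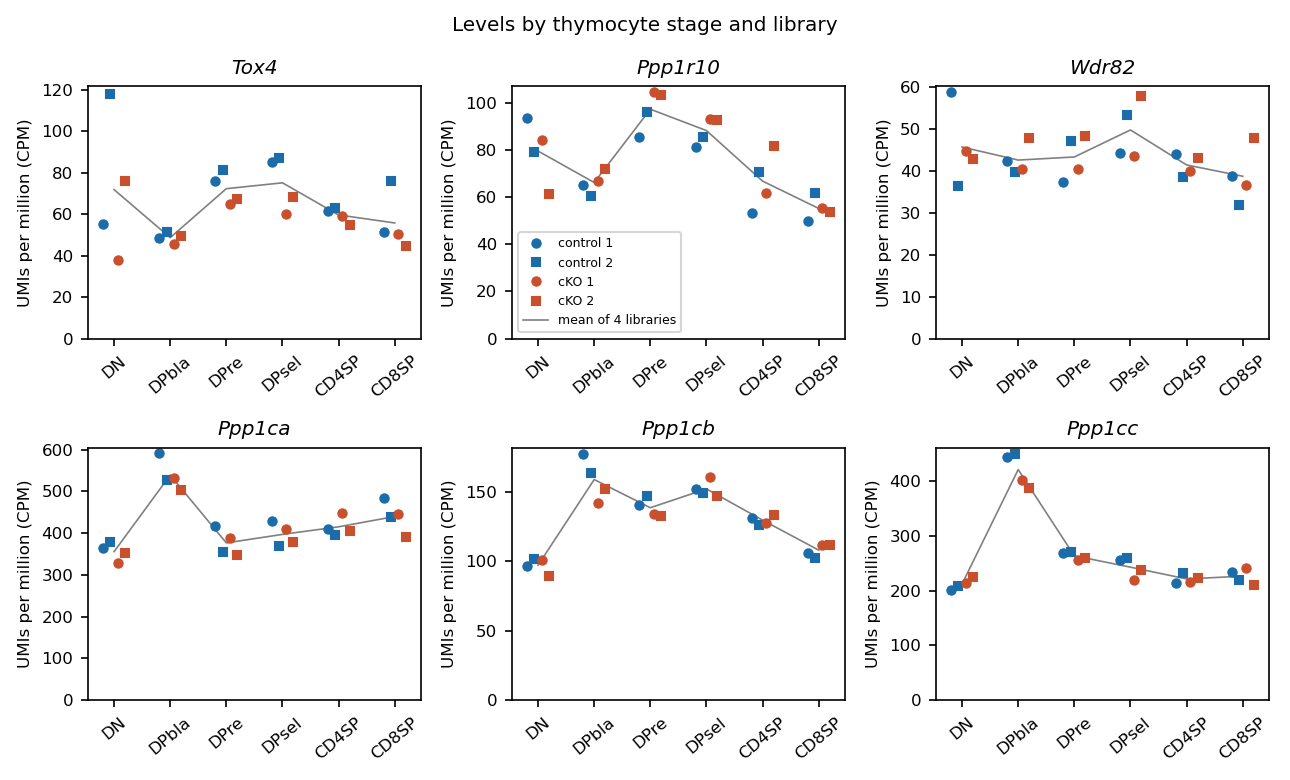
Levels in CPM (vertical axis from 0) of the 6 genes in 6 thymocyte stages, 1 point per library (circles replicate 1, squares replicate 2, blue control, orange cKO) and a line through the mean of the 4 libraries. Among the DP stages, Tox4 and Ppp1r10 dip in DPbla, where the means of Ppp1ca, Ppp1cb and Ppp1cc peak. Tox4 of DN ranges from 38.0 to 118 CPM.

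Ordered by the mean of the 4 libraries, Tox4 was lowest in DPbla (48.7 ± 2.55 CPM, SD, n = 4), then CD8SP (55.7 ± 13.9), CD4SP (59.6 ± 3.69), DN (71.8 ± 34.4), DPre (72.3 ± 7.74) and DPsel (75.1 ± 13.0). These means and SDs pool the genotypes. DPbla had the lowest mean in both, but the order above it differed. DPsel averaged 86.0 and DPre 78.6 CPM in the controls, against 64.2 and 65.9 CPM in the cKO libraries. Stages were compared with edgeR's quasi-likelihood test on UMI sums per library and stage, with library as a block and Benjamini-Hochberg adjustment over 10633 genes. This test scales the sums with TMM factors, which set most genes alike between stages, so its fold changes can differ from a ratio of the CPM values printed here. Tox4 was higher in DPre than in DPbla (log2 fold change 0.26, SE 0.07, adjusted p 0.00183), and lower in DPbla than in DN (-0.53, SE 0.14, adjusted p 0.00175). The call against DN ended without control 2 (-0.34, adjusted p 0.0683) or without cKO 2 (-0.45, adjusted p 0.0677). DPsel and DPre were not told apart (0.10, adjusted p 0.293), nor were CD8SP and CD4SP (-0.02, adjusted p 0.968).

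The scale matters for these stage differences, since a DPbla cell held a median of 7781 to 9673 UMIs and a DPre cell 2229 to 3053. Per 100 cells, Tox4 gave 40.2 to 46.7 UMIs in DPbla and 15.9 to 23.8 in DPre. On that scale Tox4 was lower in DPre than in DPbla (-1.14, adjusted p 3.92e-15), the reverse of the TMM value, along with nearly every other gene: the median gene moved by -1.37. Between DPsel and CD4SP the fold change of Tox4 was 0.00 with TMM and -0.34 (adjusted p 0.00586) with library totals, a setting added after seeing the data, under which the median of all genes moved from 0.06 to -0.27. Only ratios between genes of the same cells, given further on, are free of this choice.

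Between genotypes, Tox4 was lower in both cKO libraries than in both controls over all kept cells, at 54.9 and 62.0 CPM against 69.5 and 73.6 CPM (1761, 2762, 1808 and 2580 UMIs). The groups did not overlap, but the difference did not pass the threshold (log2 fold change -0.26, SE 0.10, 95% interval -0.49 to -0.04, p 0.0240, adjusted p 0.197, edgeR), and 2.58% of 13955 genes did. With the replicate number as a block, which the labels do not state to pair the mice, Tox4 passed it (-0.27, adjusted p 0.0460, edgeR), as did 14.4% of genes. The lower end of the interval is a larger fall and the upper end almost none, so these libraries do not fix its size. In DPsel the groups were apart as well, and Tox4 had its smallest p among the stages (-0.39, SE 0.13, p 0.00777, adjusted p 0.268). The fitted differences were -0.22 in DPre, -0.17 in CD4SP and -0.43 in CD8SP, with intervals that all reached past 0, and -0.04 (-0.29 to 0.22) in DPbla. The SP stages also differed in Mki67, a G2/M marker. It was at 54.7 and 58.4 CPM in the controls and 142 and 134 CPM in the cKO libraries in CD8SP. In CD4SP it was at 25.8 and 47.2 against 58.6 and 103 CPM. The part of cycling cells in the Tox4 values was not tested. With 1 library left out, the value in CD8SP ran from -0.70 (without control 1) to -0.13 (without control 2), and that in DPbla from -0.10 to 0.052, turning positive without control 2 or cKO 1. In DN the difference of -0.56 turned to 0.22 without control 2.

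None of the 6 members was called between cKO and control in any of 6 stages, where the genes called made up 1.98% in DPbla, 1.66% in DPre, 0.559% in DPsel, 0.125% in DN, 0.420% in CD4SP and 0.310% in CD8SP. DESeq2 called none either, and at an unadjusted p under 0.05 only Tox4 counted, in all kept cells, in DPsel and in the 3 DP stages summed. A test of whether the cKO effect differed between stages called 0 members (2.71% of genes overall) with an adjusted p of 0.716 for Tox4 in edgeR, so the stages were not shown to differ in their Tox4 response. In droplets with phagocyte markers Tox4 was at 81.1 and 64.6 CPM in the controls and at 52.1 and 65.1 CPM in the cKO libraries (54 to 78 UMIs). The groups overlapped there, and the fitted difference of -0.32 had an interval of -0.81 to 0.18 (edgeR), which takes in the values of the thymocyte stages. With 1 library left out the difference ran from -0.49 to -0.14. These droplets also held thymocyte transcripts, with Rag1 at 347 to 412 CPM against 2039 to 2541 CPM in DPre, and the share of their Tox4 UMIs that came from thymocytes was not tested. No member was called in these droplets, nor were more than 0.0237% of genes.

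**Figure D3:**
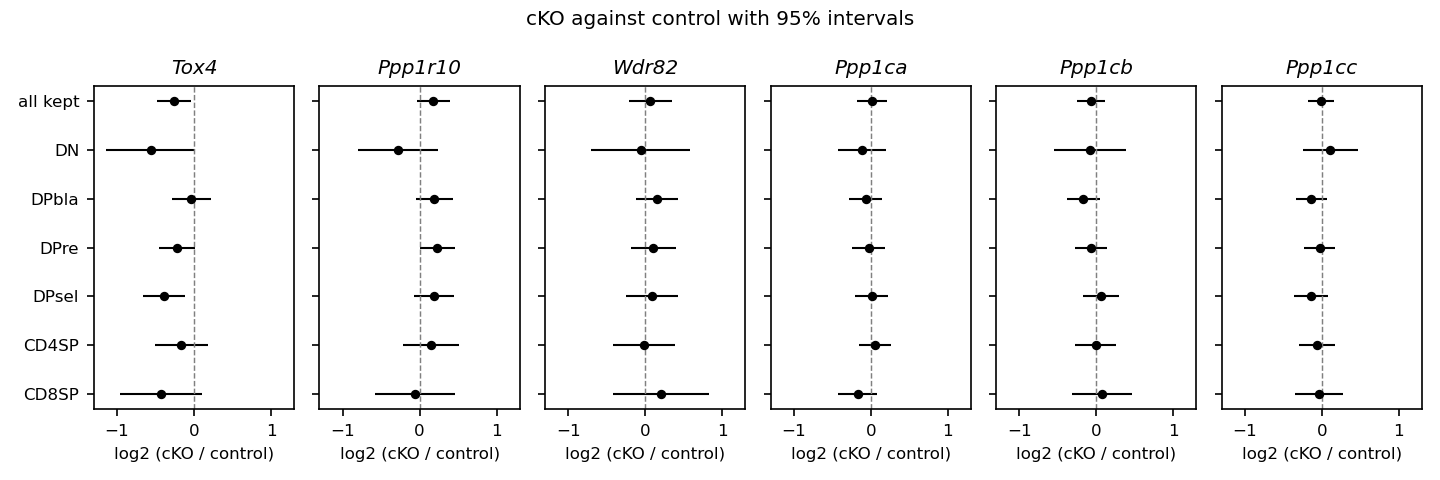
Log2 fold change of cKO over control (horizontal axis) for each gene in all kept cells and in 6 stages, as the edgeR estimate with its 95% interval, on the same axis in all panels. Tox4 lies below 0 in every row, from -0.04 in DPbla to -0.56 in DN, and no interval belongs to a value that passed the adjusted threshold.

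Ppp1r10, the scaffold, was lowest in DPbla among the DP stages, as Tox4 was. In DPbla it was at 65.3 and 60.5 CPM in the controls and at 67.0 and 72.2 CPM in the cKO libraries. DPre held the highest values, 85.4 and 96.1 CPM against 104 and 103 CPM, and DPsel held 81.3 and 85.6 against 93.3 and 92.9 CPM. The cKO libraries were above the controls in each of these DP stages, without overlap, while in DN, CD4SP and CD8SP the groups overlapped. The DP stages come from the same libraries, and 2 against 2 cannot give an exact permutation p under 0.333. The share of all genes separated in this way was not computed. Over all kept cells Ppp1r10 was at 71.3 and 78.9 CPM in the controls and 80.9 and 86.1 CPM in the cKO libraries. The difference between genotypes did not pass the threshold in edgeR over all kept cells (0.18, SE 0.09, interval -0.03 to 0.39, adjusted p 0.347) or in DPre (0.23, SE 0.11, p 0.0505, adjusted p 0.333). With 1 library left out, these differences ran from 0.10 to 0.26 and from 0.14 to 0.33.

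By stage, Ppp1r10 averaged 97.3 ± 8.78 CPM in DPre (SD, n = 4), 88.3 ± 5.82 in DPsel, 79.6 ± 13.5 in DN, 66.8 ± 12.2 in CD4SP, 66.2 ± 4.84 in DPbla and 55.2 ± 5.04 in CD8SP. It was higher in DPre than in DPbla (0.27, SE 0.06, adjusted p 0.000199), and lower per cell (-1.14). CD8SP lay below DPsel by a fold change of -0.27 that missed the threshold with TMM (adjusted p 0.102) and passed it with library totals (-0.69, adjusted p 2.24e-05), with DESeq2 size factors (-0.35, adjusted p 0.0331) and without the filter on low counts (-0.44, adjusted p 0.00753), whereas per cell it was 0.27 (adjusted p 0.0910).

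Wdr82, the third non-catalytic subunit, had the fewest UMIs of the 6 over all kept cells and the flattest course, with stage means from 38.7 to 49.7 CPM. It was at 42.2, 39.6, 40.4 and 47.9 CPM in DPbla of control 1, control 2, cKO 1 and cKO 2. In DPre the same libraries gave 37.4, 47.0, 40.3 and 48.3 CPM, and in DPsel 44.2, 53.4, 43.4 and 57.9 CPM. Replicate 2 of each genotype was above replicate 1 in DPre and DPsel, and control and cKO overlapped in all 6 stages. DPsel was above DPre (0.25, SE 0.07, adjusted p 0.00646), a call that ended without cKO 2 (0.22, adjusted p 0.0557), with stricter stage thresholds (0.18, adjusted p 0.0935) and in the control libraries alone (0.26, adjusted p 0.0702). DPre was below DPbla with TMM (-0.26, SE 0.07, adjusted p 0.000776) but not with library totals (0.032, adjusted p 0.674), and lost its call without cKO 1 (-0.17, adjusted p 0.0618), so no direction is given for it there. Over all kept cells its cKO difference was 0.07 (interval -0.21 to 0.35), and it ran from -0.076 to 0.20 with 1 library left out.

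The PP1 catalytic genes had their highest mean of the 4 libraries in the blasts. Ppp1cc, which encodes PP1 gamma, was at 445, 449, 403 and 388 CPM in DPbla of control 1, control 2, cKO 1 and cKO 2. It fell to 269, 271, 256 and 259 CPM in DPre, so no library of one stage reached the other. The difference was -0.96 (SE 0.05, adjusted p 3.59e-20), and -0.67 with library totals, where the median of all genes was 0.33 in place of 0.04.

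Ppp1ca, which encodes PP1 alpha, was at 592, 528, 533 and 504 CPM in DPbla and at 416, 355, 388 and 347 CPM in DPre. These ranges did not overlap, and the difference was -0.81 (SE 0.05, adjusted p 3.61e-17). Ppp1cb, which encodes PP1 beta, was at 178, 164, 142 and 152 CPM in DPbla and at 140, 147, 134 and 133 CPM in DPre. Here the stages overlapped across libraries, although every library was lower in DPre, and the difference was -0.48 (SE 0.05, adjusted p 5.54e-11). Against DN, where 25.1% of all genes were called higher in DPbla and 24.5% lower, all 3 were higher, Ppp1cc by 0.998 (SE 0.07), Ppp1cb by 0.76 (SE 0.09) and Ppp1ca by 0.64 (SE 0.07), each on the log2 scale and each past the threshold.

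Between genotypes, Ppp1cb and Ppp1cc were lower in both cKO libraries than in both controls in DPbla and in DPre, as the values above show. The same held over all kept cells (Ppp1cb 143 and 146 against 132 and 138 CPM, Ppp1cc 287 and 292 against 281 and 283 CPM). The groups overlapped for Ppp1ca in these sums. Lower without overlap were also Ppp1ca in DN (controls 363 and 378, cKO 329 and 352 CPM) and Ppp1cc in DPsel (controls 255 and 260, cKO 219 and 238 CPM). The order was the opposite, also without overlap, for Ppp1cc in DN (controls 201 and 208, cKO 215 and 225 CPM) and for Ppp1cb in CD8SP (controls 106 and 103, cKO 112 and 112 CPM). For 2 libraries against 2 no exact permutation p can go below 0.333, and the share of all genes separated in this way was not computed. The fitted cKO differences did not pass the threshold: in DPbla they were -0.17 for Ppp1cb (interval -0.38 to 0.046) and -0.13 for Ppp1cc (-0.34 to 0.071), and over all kept cells -0.065 (-0.25 to 0.12) and -0.012 (-0.19 to 0.16). Over all kept cells, with 1 library left out, Ppp1cb ran from -0.088 to -0.042 and Ppp1cc from -0.034 to 0.0087.

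Calls alone set none of this apart from other genes, because a large part of all genes differed between stages. From DPbla to DPre 75.4% of the genes were called, and 6 of 6 members. From DN to DPbla 49.6% were called and 4 of 6 members, from DPre to DPsel 45.0% and 2 of 6, from DPsel to CD4SP 44.1% and 2 of 6, from DPsel to CD8SP 39.5% and 2 of 6, and between the SP stages 13.1% and 0 of 6, where 1 member, Ppp1ca, had an unadjusted p under 0.05. From DPbla to DPre the higher calls were 51.0% of all calls with TMM, 68.3% with library totals and 1.98% per cell. In the same order they were 60.5%, 23.7% and 82.2% from DPsel to CD4SP, and 60.8%, 22.8% and 90.8% from DPsel to CD8SP.

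After selection, Ppp1ca had the largest fold changes of the members with TMM and the smallest from DPsel to CD4SP with library totals. It was at 429, 369, 411 and 379 CPM in DPsel, at 411, 395, 449 and 406 CPM in CD4SP and at 484, 439, 445 and 391 CPM in CD8SP. The CD8SP value was above the DPsel value in each library, though the ranges overlapped. With TMM Ppp1ca was higher in CD4SP (0.40, SE 0.06, adjusted p 2.58e-07) and in CD8SP (0.56, SE 0.07, adjusted p 2.57e-09), and with library totals these differences were 0.07 (adjusted p 0.317) and 0.15 (adjusted p 0.0544). Ppp1cc was called higher in both with TMM (0.20 and 0.32) and had fold changes of -0.13 and -0.094 with library totals, so its direction depends on the scale, and without cKO 1 neither was called (0.092 and 0.094, adjusted p 0.342 and 0.444).

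Shares among the PP1 catalytic UMIs and ratios of UMIs within the same cells do not depend on the scale. Each UMI stands for 1 captured 3′ end whatever the transcript's length, so a share is one of captured ends and not of protein. In DPbla, Ppp1ca made up 48.2% ± 1.36 of the 3 genes' UMIs (SD, n = 4), Ppp1cc 37.6% ± 1.20 and Ppp1cb 14.2% ± 0.682. From DPbla to DPre the share of Ppp1cb rose in 4 of 4 libraries, from 14.6, 14.4, 13.2 and 14.6% to 17.0, 19.0, 17.3 and 18.0% in control 1, control 2, cKO 1 and cKO 2. No DPre library lay within the range of DPbla. The share of Ppp1cc moved the other way, from 36.6, 39.4, 37.4 and 37.2% to 32.6, 35.1, 32.9 and 35.1%, also without overlap. These mean differences were 3.63 and -3.75 percentage points, and each had an exact permutation p of 0.125, the smallest that 4 paired libraries allow.

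The share of Ppp1ca differed by 0.118 points between DPbla and DPre (exact permutation p = 0.75) and was larger after selection. It was 51.3, 47.4, 52.0 and 49.6% in DPsel, 54.3, 52.4, 56.7 and 53.1% in CD4SP and 58.7, 57.7, 55.8 and 54.8% in CD8SP. Both differences from DPsel, 4.06 and 6.65 points, were positive in 4 of 4 libraries (exact permutation p = 0.125 each). Control and cKO means differed by at most 3.22 points in any stage and gene, and 2 libraries against 2 cannot give an exact permutation p under 0.333. The genotypes did not overlap for Ppp1ca and Ppp1cc in DN, for Ppp1cb in DPsel and for all 3 genes in CD8SP. Each of these had that smallest p of 0.333, so no genotype difference is read from them. In the other stages and genes the genotypes overlapped. Over stages and genotypes 30 shares were compared in all. The exact binomial intervals of single libraries, which cover counting error only, were narrow in DPre (31.4 to 33.7% for Ppp1cc of control 1) and wide in DN (23.9 to 37.4%).

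**Figure D4:**
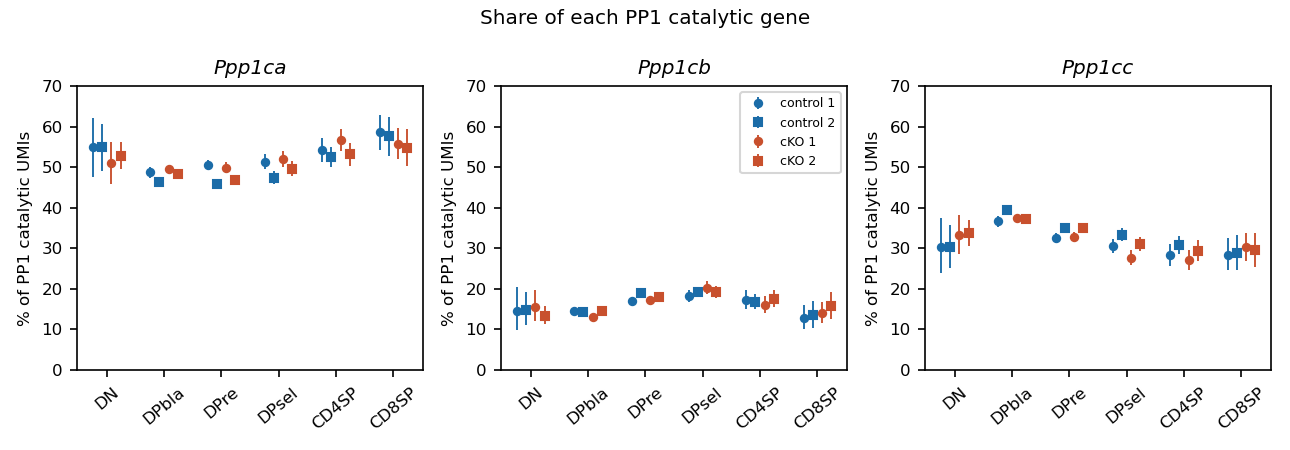
Share of Ppp1ca, Ppp1cb and Ppp1cc among their summed UMIs (percent, vertical axis from 0) by stage, 1 point per library with its exact 95% binomial interval. The Ppp1cc share is largest in DPbla, at 36.6 to 39.4%. The mean Ppp1ca share is largest in CD8SP, at 54.8 to 58.7% in single libraries, though in cKO 1 CD4SP is higher (56.7 against 55.8%).

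Because, among the DP stages, Tox4 and Ppp1r10 dipped where the means of the PP1 catalytic genes peaked (in cKO 1, Ppp1cb was at 142 CPM in DPbla and 161 CPM in DPsel), the number of catalytic UMIs per scaffold or TOX4 UMI differed widely between stages. Per Tox4 UMI there were 25.1, 22.1, 23.7 and 21.2 PP1 catalytic UMIs in DPbla of control 1, control 2, cKO 1 and cKO 2, and 10.89, 9.50, 12.04 and 10.99 in DPre. The lowest DPbla value lay well above the highest DPre value. The ratio in DPbla was 2.13-fold that in DPre (1.93 to 2.33 over libraries, higher in 4 of 4, exact permutation p = 0.125, the smallest possible). Per Ppp1r10 UMI it was 2.11-fold (1.92 to 2.35, 4 of 4), from 18.6, 18.9, 16.1 and 14.5 in DPbla and 9.67, 8.04, 7.45 and 7.15 in DPre. DN gave 5.85 to 17.0 catalytic UMIs per Tox4 UMI, below DPbla in 4 of 4 libraries. From DPsel to CD8SP the ratio per Ppp1r10 UMI rose 1.56-fold in the mean (1.35 to 1.70, 4 of 4, exact permutation p = 0.125).

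Between genotypes, ratios with Tox4 UMIs as the denominator separated the groups over all kept cells. There were 12.7 and 11.4 PP1 catalytic UMIs per Tox4 UMI in the controls and 15.5 and 13.4 in the cKO libraries, and 0.578 and 0.622 against 0.722 and 0.788 Wdr82 UMIs. Likewise there were 1.03 and 1.07 Ppp1r10 UMIs per Tox4 UMI in the controls and 1.47 and 1.39 in the cKO libraries. For Ppp1r10 the groups were also apart in DPbla (controls 1.35 and 1.17, cKO 1.47 and 1.46), in DPre (controls 1.13 and 1.18, cKO 1.62 and 1.54) and in DPsel (controls 0.956 and 0.985, cKO 1.55 and 1.36). In CD8SP they were apart too (controls 0.969 and 0.814, cKO 1.09 and 1.20), and in CD4SP and DN they overlapped. In the S-phase cells of DPbla, described further on, the order was the opposite, again without overlap (controls 0.951 and 1.20, cKO 0.796 and 0.809). Separation was not particular to ratios with Tox4. PP1 catalytic UMIs per Ppp1r10 UMI were apart over all kept cells (controls 12.3 and 10.7, cKO 10.5 and 9.62), in DPbla, in DPre and in DPsel. In DN, CD4SP and CD8SP they overlapped. With 2 libraries against 2 no exact test can go below p = 0.333. Neither Tox4 nor Ppp1r10 alone was called, apart from Tox4 over all kept cells with the replicate block.

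Within the blasts, cells were split by whether S or G2/M markers prevailed at least 2 to 1, which gave 125 to 320 S cells and 264 to 645 G2/M cells per library. Ppp1r10 was at 33.0, 48.8, 37.0 and 39.8 CPM in S cells of control 1, control 2, cKO 1 and cKO 2, and at 92.1, 72.7, 99.5 and 101 CPM in G2/M cells. The lowest G2/M library was above the highest S library. The difference was 1.10 (SE 0.11, interval 0.86 to 1.34, adjusted p 9.33e-08, edgeR), a 2.14-fold level that placed Ppp1r10 at the 96.5th percentile of 9401 genes. It was 1.23 with library totals, 1.06 per cell, and 1.02 to 1.27 with any 1 library left out.

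The other members differed less between the phases, with 5 of 6 members called against 49.0% of all genes. Ppp1ca was higher in G2/M by 0.25 (SE 0.05), Ppp1cb by 0.27 (SE 0.07) and Ppp1cc by 0.21 (SE 0.06), each with the G2/M value above the S value in 4 of 4 libraries. The call of Ppp1cc ended without cKO 2 (0.15, adjusted p 0.0530). Wdr82 was lower (-0.29, SE 0.11, adjusted p 0.0299) but lost its call with library totals (-0.16, adjusted p 0.207) and without control 1, control 2 or cKO 1 (adjusted p 0.0513 to 0.189). Tox4 was not called (0.08, adjusted p 0.580). Because Ppp1r10 rose more than the catalytic genes, PP1 catalytic UMIs per Ppp1r10 UMI fell in 4 of 4 libraries, to 0.556 of the S value in the mean. Of all calls, 48.9% were higher in G2/M with TMM, 63.9% with library totals and 44.2% per cell.

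The genotypes stood in opposite order for Tox4 in the 2 phases. S cells held 34.7 and 40.6 CPM in the controls and 46.4 and 49.2 CPM in the cKO libraries, whereas G2/M cells held 55.7 and 56.4 against 43.2 and 52.0 CPM. The groups did not overlap in either phase although in cKO 1 and cKO 2 the phases themselves were close. The interaction of genotype and phase, tested after these values were seen, was -0.59 (SE 0.20, interval -1.02 to -0.16, p 0.0110, adjusted p 0.888, edgeR), and this test called 0.00% of 9401 genes, with 511 at an unadjusted p under 0.05. These values rest on 41 to 136 Tox4 UMIs per library in S cells.

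**Figure D5:**
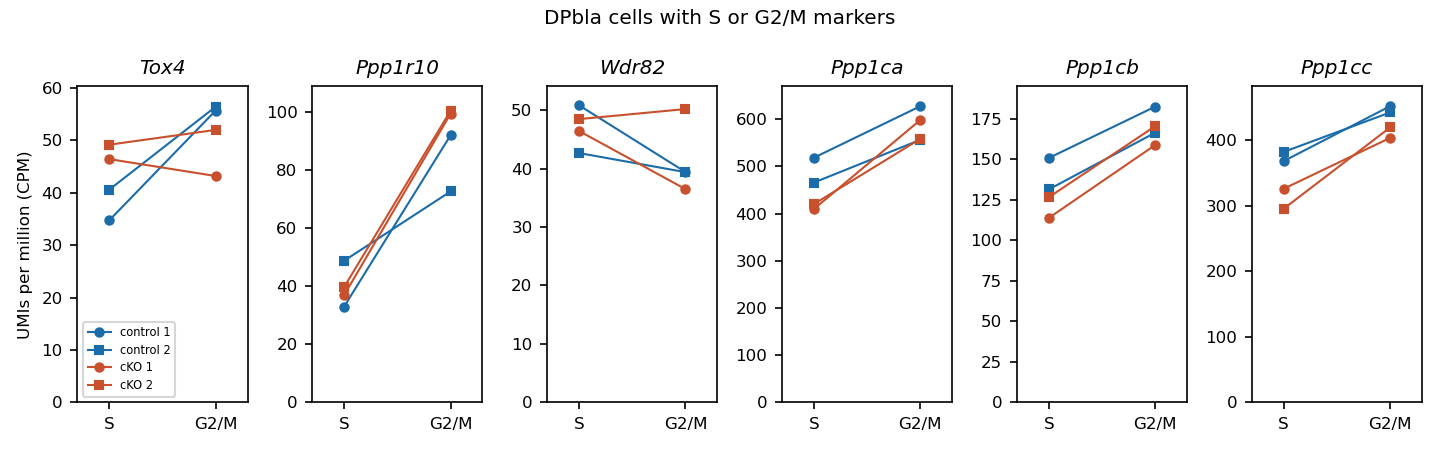
Levels in CPM (vertical axis from 0) of the 6 genes in DPbla cells with S or with G2/M markers, lines joining the phases of a library. Ppp1r10 climbs in all 4 libraries, from 33.0 to 48.8 CPM in S cells to 72.7 to 101 CPM in G2/M cells, while Tox4 climbs in both controls and moves from 46.4 to 43.2 and from 49.2 to 52.0 CPM in the cKO libraries.

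Since Ppp1r10 stood out in G2/M cells, promoters were searched for the CHR element TTTGAA, a motif known from many genes of late cell cycle, and its variant TTTAAA, for the E2F site TTTGGCGC, the E-box CACGTG and the CCAAT box, on both strands, from 250 bases before to 50 bases after the RefSeq start (GRCm38). Promoters of 5 of 6 members were in the table, with 2 for Ppp1r10. The CHR letters stood in both Ppp1r10 promoters, in no other member that had a promoter there, and in 17.9% of 32851 promoters. That share is per promoter, and Ppp1r10 had 2. The 2 windows are printed with the motif in capitals, the former 64 and the latter 247 bases before its RefSeq start. Both lie downstream of the annotated gene start given above (35916434), so these RefSeq starts differ from it.
Ppp1r10, chr17:35917120-35917149, plus strand: tcctgcgacaacTTTGAAacgtttaaaggc
Ppp1r10, chr17:35919022-35919051, plus strand: aatTTTGAAtcttctccataacaaaatggc
The variant followed 9 bases on in the former window (13.2% of all promoters), and the E2F site (0.514%), the E-box (7.15%) and the CCAAT box (37.4%) were in no member's window. A match of letters is not a bound site.

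Genes around the complex were counted from lists. From DPbla to DPre, where 38.5% of all genes were called higher and 37.0% lower, 5 of 19 other PP1 partners were higher and 9 lower, with a median of -0.29 against 0.04 over all genes. Ppp1r15a, which brings PP1 to the translation factor eIF2, was higher by 0.49 (SE 0.11), and Knl1, which docks PP1 at kinetochores, was lower (-4.90, SE 0.11). Mki67, a PP1 partner of mitotic chromosomes, fell by 5.74 but is among the genes that define the blasts. Ppp1r37 was higher by 0.48 (SE 0.09).

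Of 9 Wdr82 partners 1 was higher and 7 were lower, with a median of -0.24. Setd1b, a methyltransferase of the SET1 complexes, was higher by 0.20 (SE 0.05), and the core subunits Dpy30 and Wdr5 were lower (-1.43, SE 0.05, and -0.82, SE 0.09). Among 16 genes of RNA polymerase II, SPT5 and other phosphatases 4 were higher and 10 lower (median -0.19). The small CTD phosphatases parted, Ctdsp2 being higher by 0.52 (SE 0.06) and Ctdspl lower (-2.83, SE 0.13). Rprd1a, a CTD-binding protein, was higher by 0.40 (SE 0.08), and Ppp2cb, a PP2A catalytic gene, lower (-0.60, SE 0.08).

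Of 9 genes of the CTD kinases, which add the phosphate that the complex removes, 4 were higher and 2 lower (median 0.12). Ccnt2, a cyclin of CDK9, was higher by 0.49 (SE 0.06) and Cdk12 by 0.33 (SE 0.05), and Ccnh, the cyclin of CDK7, was lower (-0.48, SE 0.06), as was Ccnk, the cyclin of CDK12 and CDK13 (-0.46, SE 0.08). Of 3 TOX paralogs 2 were higher, Tox3 by 1.70 (SE 0.15, from 3.67 to 5.47 CPM in DPbla to 15.2 to 22.1 CPM in DPre) and Tox by 0.31, the latter a gene of the DPsel threshold. With library totals all 17 genes named from the lists kept their sign, while the counts shifted upward, to 9 higher and 8 lower partners of PP1 and 2 higher and 4 lower partners of Wdr82, 7 and 3 in the polymerase list and 7 and 2 among the kinases, where 54.6% of all genes were called higher and 25.3% lower. Per cell, 8 of the 17 turned, and of the 9 called higher with TMM only Tox3 kept a positive sign, without being called higher.

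Between cKO and control in the 3 DP stages summed, 6.40% of genes were called (4.01% higher and 2.40% lower in cKO) and no member. Of the 19 other PP1 partners 3 were higher, Mki67 by 0.72 (SE 0.10, adjusted p 0.000859) and Rrp1b, a nucleolar partner, by 0.66 (SE 0.17, adjusted p 0.0300); the third was Knl1, named after its value was seen. No gene of the other lists was called. The blasts' share of DP cells was 13.3 and 10.6% in the controls but 20.5 and 16.7% with cKO, and its part in these calls was not tested. Within DPbla or DPre alone 0 of 19 partners were called.

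The 6 genes were not alike in their course. Over the 24 sums of library and stage, Pearson's r was 0.77 for Ppp1ca with Ppp1cc, 0.71 for Ppp1cb with Ppp1cc and 0.64 for Ppp1ca with Ppp1cb, but -0.05 for Tox4 with Ppp1r10 and -0.33 for Tox4 with Wdr82. These points share libraries, cells of one run and, in DN and CD8SP, low counts, so r is given as a description. Among 6078 genes with a mean of at least 20 CPM, the courses most like that of Tox4 were those of Lig3 (r = 0.74), Dpp3 (0.74), Tmem168 (0.70), Isca1 (0.70) and Fbxw5 (0.68). Those most like Ppp1r10 were Atxn7l3b (0.75), Dhx8 (0.71), Xpc (0.71), Dhx30 (0.71) and Klhl24 (0.68). Lig3, a DNA ligase, averaged 20.3 CPM in DPbla and 31.2 CPM in DPre, and Xpc, a DNA repair factor, 21.6 and 52.4 CPM.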

How the data were processed

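Gene-by-cell matrices of raw UMI counts, 1 per library, were deposited by the authors, who made them with Cell Ranger (6.1.1 per the file headers) on mm10 from 10x 3′ version 3 libraries. Values were neither normalized nor pooled. Following the study's limits, cells with under 200 genes, in the top or bottom 2.5% of UMIs or with over 10% mitochondrial UMIs were left out. No doublet caller was run; droplets with markers of B, erythroid, epithelial, myeloid or gamma-delta T cells entered no stage. Cells were staged by UMIs of marker genes (CD4 and CD8 genes with Il2ra and Notch targets for DN, 24 S and G2/M genes for DPbla, Rag and other rearrangement genes for DPre, Cd69 and other selection genes for DPsel, Ccr7 and other maturity genes for SP). UMIs were summed per library and stage, in stages with at least 30 cells per library, and tested with edgeR 4.0.16 (filterByExpr, TMM, quasi-likelihood F test, R 4.3.3), with Benjamini-Hochberg adjustment over all genes tested. An adjusted p under 0.05 was called. CPM divide by the sum's total. Standard errors were derived from the F value. DESeq2 1.42.0 was an alternative. The fits were tested on simulated data. The members, lists and named genes (per list, at most 2 called genes a direction by fold change, and the 5 nearest courses to Tox4 and Ppp1r10) were chosen with earlier results of these data known. The study describes its libraries as pairs of control and cKO mice, and the labels do not tie the numbers 1 and 2 to pairs. Intervals of shares cover counting error only.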

Additional observations from a re-analysis of the deposited data

How the results depend on the processing

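Of 1392 fold changes of members recomputed under alternatives, 1330 kept their side of the threshold and, where called, their direction. Of 1137 values called under neither setting, 141 differed in sign. The study describes pairs of control and cKO mice, but the replicate numbers are not stated to mark them. Deviations of same-numbered libraries correlated at 0.156 over all kept cells (0.0810 to 0.215 over the stages), and with the replicate block Tox4 over all kept cells was called (-0.27, adjusted p 0.0460), making 1 member, along with 14.4% of genes in place of 2.58% (2009 against 360 genes). Within the stages the block called 0 members and 0.634% (CD8SP) to 9.27% (DPbla) of genes, in the 3 DP stages summed 0 and 16.7%, and in the phagocyte droplets 0 and 0.178%.

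Library totals in place of TMM, a setting chosen after seeing the data, called 1 member from DPre to DPsel (46.3% of genes), 4 from DPsel to CD4SP (57.9%) and 4 from DPsel to CD8SP (52.0%). It reversed Wdr82 from DPbla to DPre (0.032), Wdr82, Ppp1cb and Ppp1cc from DPsel to CD4SP (-0.28, -0.23 and -0.13) and Wdr82 and Ppp1cc from DPsel to CD8SP (-0.36 and -0.094). Per cell, 6, 4, 5 and 2 members were called from DPre to DPsel, DPsel to CD4SP, DPsel to CD8SP and CD4SP to CD8SP, with 70.1%, 52.9%, 60.3% and 29.1% of genes. This scale reversed Tox4 and Ppp1r10 from DPbla to DPre (both -1.14), Ppp1r10 and Ppp1cc from DPre to DPsel (0.33 and 0.36) and Tox4 and Ppp1cb from DPsel to CD8SP (0.53 and 0.48).

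The count of 2 members from DPre to DPsel (45.0% of genes) became 1 without the filter on low counts (24.1%) or at a mitochondrial limit of 5% (27.7%), 4 with stages by marker score (58.7%), 0 in control libraries alone (34.0%) and 1 to 2 with a library left out (1 without cKO 1, where Ppp1cb was lost at 0.14 and adjusted p 0.0711, and 1 without cKO 2; 37.7 to 38.4% of genes). The count of 2 from DPsel to CD4SP (44.1%) became 1 with DESeq2 size factors (43.5%), without the filter (22.8%), at 5% (30.2%), by marker score (36.8%) and in controls alone (33.9%), and 1 to 2 with a library left out (1 without cKO 1; 36.2 to 39.8%). From DPsel to CD8SP it became 1 in controls alone (26.8%) and 1 to 2 with a library left out (1 without cKO 1; 34.0 to 34.5%), against 39.5%. At a limit of 5% the shares from DPbla to DPre moved to 5.46 points (Ppp1cb) and -0.953 (Ppp1ca), and Ppp1ca from DPsel to CD4SP to 5.38. With a library left out, Ppp1ca from DPbla to DPre ranged from -0.404 to 0.587 points. By marker score the log2 ratio of catalytic to Ppp1r10 UMIs, DPbla over DPre, was 1.21. These settings changed cells, scale or samples, and the cause was not tested. A mitochondrial limit of 5% or stricter thresholds left some stages under 30 cells in a library, so these gave no value there. Depth limited DN and CD8SP most, at 16 to 103 and 30 to 43 Tox4 UMIs.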
